A study of Mus musculus with 13 samples.

Results

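The copines are a family of 9 mouse genes, *Cpne1* to *Cpne9*, and all 9 have a row among the 50508 features of the UMI count tables described here. They were chosen by name, with earlier results of the same data known: *Cpne4* and *Cpne2* had already been seen to differ between clusters of adult neurons. Cluster values are therefore given as descriptions without a test, and tests were kept to stages, to wells that the annotation left out and to sets of plates. Copines are cytosolic proteins with a tandem pair of C2 domains, which bind membrane phospholipids when calcium rises, followed by a von Willebrand factor A domain that binds partner proteins. They are known as calcium sensors that move from the cytosol to membranes. The best studied in neurons is copine 6, which acts at dendritic spines and at synaptic vesicle release, and *Cpne4* is known from retinal ganglion cells.

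The cells were sorted as proprioceptors of mouse dorsal root ganglia, the sensory neurons that supply muscle spindles and Golgi tendon organs. Single fluorescent neurons were sorted into 13 plates of 96 wells and sequenced with unique molecular identifiers (UMIs), each of which counts 1 RNA molecule. Adult mice (older than postnatal day 56, 5 plates), P12 mice (4 plates) and P0 mice (2 plates) carried PV:Cre+/-;Rx3:Flp+/-;Ai65+/-, so that tdTomato marks cells that have expressed both parvalbumin and Runx3. E14.5 embryos (2 plates) carried TrkC:tdTomato, a reporter of *Ntrk3* expression that other TrkC neurons such as Merkel cell afferents also carry, and were sorted with a narrower nozzle. Reporter, nozzle and age therefore cannot be told apart in any comparison with E14.5. Mice of either sex were used, and which animals stand behind which plate is not given. The study took its adult neurons from fewer experiments than there are adult plates, so some of these plates share an experiment and are not independent. SDs and p-values therefore measure the spread between plates, not between animals or experiments. The annotation deposited with the counts kept 586 neurons of 1248 wells, namely 208 adult, 154 P12, 55 P0 and 169 E14.5 neurons, with between 680212 and 2387288 UMIs per plate. The same 96 well barcodes served all 13 plates. Mean depth per neuron was 11174 UMIs at E14.5, 41594 at P0, 30623 at P12 and 44511 in the adult. The check genes *Pvalb*, *Etv1*, *Ntrk3* and *Runx3* were detected at every stage, *Pvalb* at a mean of 622 CPM (UMIs of a gene when a neuron's UMIs are scaled to 1000000) at E14.5 and between 2057 and 3577 CPM later. *Runx3* was found in 63.3% of E14.5, 80.0% of P0, 40.3% of P12 and 72.6% of adult neurons. Further markers of proprioceptors were rare at E14.5, where *Whrn* had 2 UMIs in 169 neurons and *Slc17a7* was found in 8.88%. At later stages *Whrn* was found in 58.2% to 87.0% and *Slc17a7* in 78.6% to 98.6% of neurons.

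Adult neurons fall into annotated clusters 1 to 5 (166 neurons), of which cluster 1 is annotated as group Ia spindle afferents, cluster 5 as group Ib tendon organ afferents, and clusters 2 to 4 as putative group II spindle afferents. A further 42 adult neurons carry the label excluded. By the study these fell into classes other than proprioceptors or into small clusters, and they count among the kept neurons here. Plates and clusters are partly confounded: adult clusters 2 and 4 occur only on replicates 1 and 2, cluster 3 lies mostly on replicates 3 to 5, P12 clusters 2 and 3 lie on replicates 1 and 2, and P12 clusters 1, 4 and 5 on replicates 3 and 4.

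RefSeq promoter windows (250 bases before to 50 after a transcript start, build GRCm38.p6) were at hand for 6 of the 9 genes: *Cpne1*, *Cpne2*, *Cpne4*, *Cpne5*, *Cpne8* and *Cpne9*. Those of *Cpne4*, *Cpne2* and *Cpne8* are printed because these genes differed in level between neuron clusters. Capitals mark, on either strand, the core letters TGTGGT bound by RUNX factors and the letters GGGCGG of the GC box. A match on the opposite strand therefore reads ACCACA for the former. For the latter it reads CCGCCC. The windows of *Cpne4* span chr9:104569405-104569704 and chr9:104587808-104588107 on the plus strand. That of *Cpne2* spans chr8:94532778-94533077 on the plus strand and that of *Cpne8* chr15:90679339-90679638 on the minus strand. Each is written 5′ to 3′ along its gene. The annotated *Cpne4* gene begins further upstream, at base 104547286, so upstream and downstream refer only to these windows.
Cpne4 upstream start: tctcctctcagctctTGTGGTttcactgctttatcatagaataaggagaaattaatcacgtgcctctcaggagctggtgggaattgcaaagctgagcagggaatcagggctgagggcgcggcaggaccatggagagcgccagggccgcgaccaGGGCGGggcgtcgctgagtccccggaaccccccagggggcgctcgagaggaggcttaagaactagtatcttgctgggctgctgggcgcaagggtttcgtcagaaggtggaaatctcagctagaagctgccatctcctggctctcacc
Cpne4 downstream start: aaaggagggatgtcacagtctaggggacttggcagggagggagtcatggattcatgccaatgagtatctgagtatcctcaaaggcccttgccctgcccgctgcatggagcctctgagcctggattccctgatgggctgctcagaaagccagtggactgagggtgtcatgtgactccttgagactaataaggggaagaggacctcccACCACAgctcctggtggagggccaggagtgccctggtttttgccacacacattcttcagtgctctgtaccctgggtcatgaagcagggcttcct
Cpne2: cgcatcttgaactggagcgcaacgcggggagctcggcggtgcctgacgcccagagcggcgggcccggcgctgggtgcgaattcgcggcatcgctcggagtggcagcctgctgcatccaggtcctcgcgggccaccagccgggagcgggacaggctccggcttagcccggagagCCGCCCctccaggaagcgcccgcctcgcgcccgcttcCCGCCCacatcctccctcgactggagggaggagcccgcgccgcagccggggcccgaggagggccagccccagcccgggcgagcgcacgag
Cpne8: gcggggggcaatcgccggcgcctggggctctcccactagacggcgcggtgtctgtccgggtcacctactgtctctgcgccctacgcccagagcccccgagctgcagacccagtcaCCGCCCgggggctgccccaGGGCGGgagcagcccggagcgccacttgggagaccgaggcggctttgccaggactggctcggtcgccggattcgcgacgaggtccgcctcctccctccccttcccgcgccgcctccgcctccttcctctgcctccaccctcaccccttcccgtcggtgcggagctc

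The core letters TGTGGT occurred once at each *Cpne4* start, 235 bases before the upstream start and 44 before the downstream start, and in no window of *Cpne2*, *Cpne5*, *Cpne8* or *Cpne9*. The *Cpne1* window also held 1 match, and 16.8% of the 32851 RefSeq windows of this length hold these letters. The match is a description of the sequence, and binding was not tested. The GC box occurred in 35.7% of all windows and 2 times in each copine window other than those of *Cpne4*. CpG dinucleotides numbered 39 in the *Cpne2* window, 32 in that of *Cpne8*, 14 at the upstream *Cpne4* start and 1 at its downstream start, against a median of 7 over all windows.

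*Cpne4* was high in adult clusters 1 and 5 and low or without a UMI in clusters 2 to 4. The gene spans chr9:104547286-105034544 (GRCm38). In cluster 1 its mean level was 78.6, 66.5, 61.0, 49.1 and 43.2 CPM on replicates 1 to 5 (59.7 ± 14.0, SD, n = 5 plates), and 46 of 51 neurons held a UMI (90.2%, exact binomial 95% interval from 78.6% to 96.7%, counting error only). In cluster 5 the plates gave 34.4, 13.7, 48.1, 17.0 and 32.9 CPM (29.2 ± 14.1, n = 5), with a UMI in 22 of 31 neurons. Both clusters lie on the same 5 plates, and cluster 1 was the higher on each of them, although its lowest plate lay below the highest plate of cluster 5. In cluster 4 the gene had no UMI in any of 28 neurons, a count that allows at most 10.7% of neurons with a UMI at this depth. It sets no limit on neurons that express the gene, and mean depth was 21432 UMIs per neuron in cluster 4 against 61460 in cluster 1 and 57451 in cluster 5. Cluster 2 stood at 0 and 13.9 CPM on its plates. Cluster 3 stood at 0, 2.14, 6.09 and 6.36 CPM on replicates 2 to 5, while its single neuron on replicate 1 held 1 UMI. Every plate of cluster 1, and all but replicate 2 of cluster 5, therefore lay above every plate of clusters 2, 3 and 4 that held at least 2 neurons of the cluster. Among the excluded neurons 9 of 42 held a UMI. Their plates stood at 5.35, 0, 12.9, 29.8 and 0 CPM, on replicate 4 above cluster 5 of that plate.

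On the log2 scale, with 1 CPM added, *Cpne4* was 2.47 higher in cluster 1 than in the mean of clusters 2 to 5, and this difference ranged from 1.10 to 3.10 over the plates taken singly. From replicates 1 and 2 alone it was 3.07 and from replicates 3 to 5 alone 1.40. On the latter plates only clusters 3 and 5 stand against cluster 1. Thinned to 7000 UMIs per neuron, the share of neurons with a *Cpne4* UMI was 35.7% in cluster 1 and 16.1% in cluster 5, in the same order as the CPM.

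*Cpne6*, the neuronal copine of spines and synapses, had another pattern. The gene lies at chr14:55510445-55517431. Adult cluster 5 stood at 343, 304, 476, 503 and 434 CPM (412 ± 85.7, n = 5), and all 31 of its neurons held a UMI. Cluster 1 stood at 49.0, 47.7, 43.8, 76.9 and 96.1 CPM, cluster 2 at 66.9 and 107 CPM, and cluster 4 at 152 and 68.5 CPM. Cluster 3 stood at 80.8, 94.7, 114 and 126 CPM on replicates 2 to 5. No plate of clusters 1 to 4 reached the lowest plate of cluster 5. Among clusters 1 to 4 the ranges of the plates overlapped, but within each plate cluster 1 was the lowest cluster with at least 2 neurons. The log2 difference of cluster 5 over the mean of clusters 1 to 4 was 2.17, and from 1.93 to 2.76 over single plates. This contrast was chosen after its values were seen. The excluded neurons stood between 227 and 511 CPM per plate, within reach of cluster 5. Cluster 1 and cluster 5, the group Ia and group Ib neurons, were thus the clusters with the highest *Cpne4*, and lay at opposite ends for *Cpne6*.

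*Cpne2* and *Cpne8* were sparser. *Cpne2* (chr8:94532990-94570531) stood at 31.9 and 51.7 CPM on the plates of adult cluster 4, with a UMI in 11 of 28 neurons, and at no more than 7.80 CPM on any plate of clusters 1, 2 and 5. Cluster 3 reached 28.7 CPM on replicate 2, where it has 2 neurons and 1 *Cpne2* UMI, and at most 5.89 CPM elsewhere. The log2 difference of cluster 4 over the mean of the other main clusters was 3.00 with 1 CPM added and 1.85 with 10 CPM added, and from replicates 1 and 2 alone it was 2.11. Excluded neurons ranged from 4.29 to 32.7 CPM per plate. *Cpne8* (chr15:90487482-90679432) stood at 9.84, 29.3, 59.1, 36.5 and 22.2 CPM in cluster 5, with a UMI in 17 of 31 neurons. In the other main clusters it was at most 15.5 CPM on any plate, in cluster 4 of replicate 1. On that replicate cluster 5, at 9.84 CPM, lay below cluster 4, cluster 2 (10.8 CPM) and the excluded neurons (16.1 CPM). On replicates 2 to 5 cluster 5 was the highest, with the excluded neurons at 15.3, 8.68, 7.58 and 4.62 CPM.

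**Figure D1:**
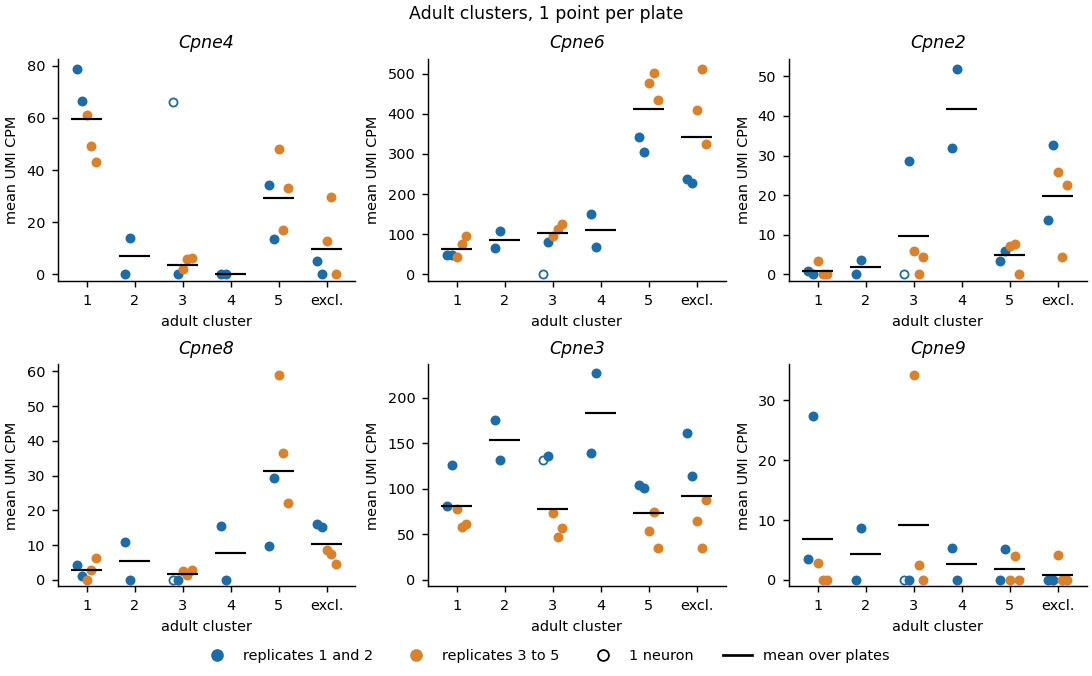
Mean UMI CPM of 6 copines in the adult clusters and the excluded neurons (excl.), 1 point per plate, blue for replicates 1 and 2 and orange for replicates 3 to 5. Open points rest on 1 neuron, and the line is the mean over plates with at least 2. By the mean over plates, *Cpne4* is highest in cluster 1, *Cpne6* and *Cpne8* in cluster 5 and *Cpne2* in cluster 4, while *Cpne3* is found in all clusters. Clusters 2 and 4 lie only on replicates 1 and 2, the plates with the higher *Cpne3* in clusters 1, 3 and 5.

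*Cpne3* (chr4:19519254-19570108), a broadly expressed copine, was found in 92.8% of the adult neurons. On replicates 1 and 2, the plates that hold clusters 2 and 4, it stood at 176 and 132 CPM in cluster 2 and at 139 and 227 CPM in cluster 4. On the same plates it stood at 81.0 and 127 CPM in cluster 1 and at 104 and 101 CPM in cluster 5, so clusters 2 and 4 lay above both on these plates. Cluster 3 stood at 136 CPM on replicate 2 and at 46.9 to 73.3 CPM on replicates 3 to 5. Replicates 3 to 5 were lower within a cluster, at 57.6 to 78.3 CPM in cluster 1 and 34.8 to 74.9 CPM in cluster 5.

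The other 4 copines were sparse in the adult. *Cpne9* (chr6:113282307-113305627) had 114 UMIs in all kept neurons, 34 of them (29.8%) in 1 adult neuron of cluster 1 on replicate 2, and its plate values followed such neurons. *Cpne5* (chr17:29155556-29238167) had 7 UMIs in 208 adult neurons. *Cpne1* (chr2:156071842-156111965) had 17 UMIs in all 586 neurons. Its exons overlap those of *Rbm12* and *Gm28036* on the same strand, so its reads can be assigned to either gene and its level is uncertain. Exons of *Cpne5* and *Cpne9* overlap genes on the opposite strand, and whether counting used the strand is not given in the sources used here, so these levels are uncertain too. *Cpne7* (chr8:123117374-123135182), known from tooth development, had no UMI in any kept neuron and 4 UMIs in the wells left out. A count of 0 over all adult neurons allows at most 3 UMIs, a level of 0.324 CPM.

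Detection of copine pairs was counted in single adult neurons. In cluster 5, 13 of 31 neurons held UMIs of both *Cpne4* and *Cpne8*, 9 only *Cpne4*, 4 only *Cpne8* and 5 neither. *Cpne4* and *Cpne2* met in 7 of the 166 main-cluster neurons, 6 of them in cluster 5, while 72 held only *Cpne4*, 20 only *Cpne2* and 67 neither. In cluster 1, 40 of 51 neurons held both *Cpne4* and *Cpne6*. These counts describe detection at the depth of each neuron.

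The genes most like *Cpne4* were sought over 11495 genes in the 166 adult main-cluster neurons, as the mean over 5 plates of Pearson's r of log10(CPM + 1). The neurons of a plate share their library, and depth and composition enter every r, so these values are descriptions. The highest were *Map7d2*, a microtubule-associated protein gene (0.76), *Rgs6*, a regulator of G protein signalling (0.71), the neurofilament genes *Nefl* (0.70) and *Nefh* (0.67), and *Kcnq3*, a subunit of the M-type potassium channel (0.67). The lowest were the glycolytic aldolases *Aldoc* (-0.66) and *Aldoa* (-0.62) and *Sncg*, gamma-synuclein (-0.62). On single plates *Map7d2* ranged from 0.62 to 0.89, against a median r over all genes of 0.12 and a 99th percentile of 0.41. For *Cpne6*, listed after its values were seen, *Tppp3* (0.54), *Timp2* (0.50), *Id3* (0.45) and *Ebpl* (0.44) were among the highest, with a 99th percentile of 0.28. Its lowest were *Ckb*, brain creatine kinase (-0.47), *Colq* (-0.45) and *Heg1* (-0.43). For *Cpne3* the values were smaller. The highest were *Esrra* (0.34, from -0.11 to 0.79 on single plates), *St8sia3* (0.33), *Skiv2l* (0.31), *Slc24a2* (0.30) and *Lztr1* (0.30), and the lowest *Ing1* (-0.36), *Gpr3* (-0.36) and *Fam65c* (-0.31), against a 99th percentile of 0.20 and a 1st percentile of -0.22 over all genes.

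At P12 *Cpne4* again separated clusters. All 8 neurons of P12 cluster 2 and all 8 of cluster 5 held a UMI, at 65.5 and 80.5 CPM on the plates of cluster 2 and 56.8 and 52.4 CPM on those of cluster 5. None of 63 neurons of cluster 1 did, a count that allows at most 4.76% of neurons with a UMI at this depth, and 3 of 58 neurons of cluster 4 did. Depth differed, with a mean of 16306 UMIs per neuron in cluster 1, 31619 in cluster 4, 49068 in cluster 5 and 75889 in cluster 2. Thinned to 7000 UMIs, the share with a *Cpne4* UMI was 33.0% in cluster 5, 39.4% in cluster 2, 0.84% in cluster 4 and 0% in cluster 1. Clusters 5, 1 and 4 lie on the same plates, so this contrast is found within a plate. Cluster 3, at 3.74 and 4.70 CPM, was also low on the plates that hold cluster 2. *Cpne6* was high in all P12 clusters, from 129 to 236 CPM per plate in clusters 1, 2, 4 and 5, and 575 and 288 CPM in cluster 3. *Cpne8* was highest in the same cluster 3, at 20.5 and 39.2 CPM. *Cpne2* stood at 38.4 and 19.7 CPM in P12 cluster 1, where *Cpne4* had no UMI, and had no UMI in cluster 5.

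At P0 *Cpne6* was at 310 and 378 CPM in cluster 2 (12 of 12 neurons) against 117 and 108 CPM in cluster 1 and 62.6 and 150 CPM in cluster 3. *Cpne4* had 12 UMIs in 55 P0 neurons and reached at most 21.2 CPM on any plate of a cluster. *Cpne5* had 25.8 and 49.3 CPM in the 8 neurons of cluster 3, from 6 UMIs, and between 4.87 and 20.4 CPM in clusters 1 and 2. Glial transcripts were highest in this P0 cluster: the sum over 9 glial markers was 3406 to 3491 CPM there and 288 to 505 CPM in clusters 1 and 2, and its part in the *Cpne5* level was not tested.

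At E14.5 *Cpne6* and *Cpne8* were highest in cluster 3, in which *Etv1* stood at 83.2 and 128 CPM against 736 to 860 CPM in clusters 1 and 2, and *Runx3* at 45.6 and 48.0 CPM against 106 to 197 CPM. The study proposes that clusters 3 and 4 are TrkC neurons other than proprioceptors, with Merkel cell afferents among them. The sum over 9 glial markers was 175 to 240 CPM in cluster 3 and 112 to 212 CPM in cluster 4. It was 4.24 to 46.5 CPM in clusters 1 and 2, and its part in the copine levels was not tested. *Cpne6* stood at 128 and 132 CPM in cluster 3 and between 9.47 and 17.6 CPM on the plates of clusters 1 and 2. *Cpne4* stood at 38.8 and 69.7 CPM in cluster 3, at 3.44 and 4.17 CPM in cluster 2, and had no UMI in 41 neurons of cluster 1, a count that allows at most 7.32% of neurons with a UMI at this depth. Mean depth was 8475 UMIs per neuron in cluster 1 and 14842 in cluster 3, and 3 UMIs over all neurons of cluster 1 would be 8.63 CPM. *Cpne8* stood at 55.6 and 46.7 CPM in cluster 3, 20.3 and 18.5 CPM in cluster 2 and 7.93 and 8.46 CPM in cluster 1. Cluster 4 had 6 neurons, none with a *Cpne8* UMI. Its 5 neurons on replicate 2 stood at 104 CPM of *Cpne4* from 4 UMIs, above cluster 3, and its single neuron on replicate 1 held none. Of the 32 *Cpne4* UMIs of this stage, 24 came from cluster 3 and 4 from cluster 4.

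**Figure D2:**
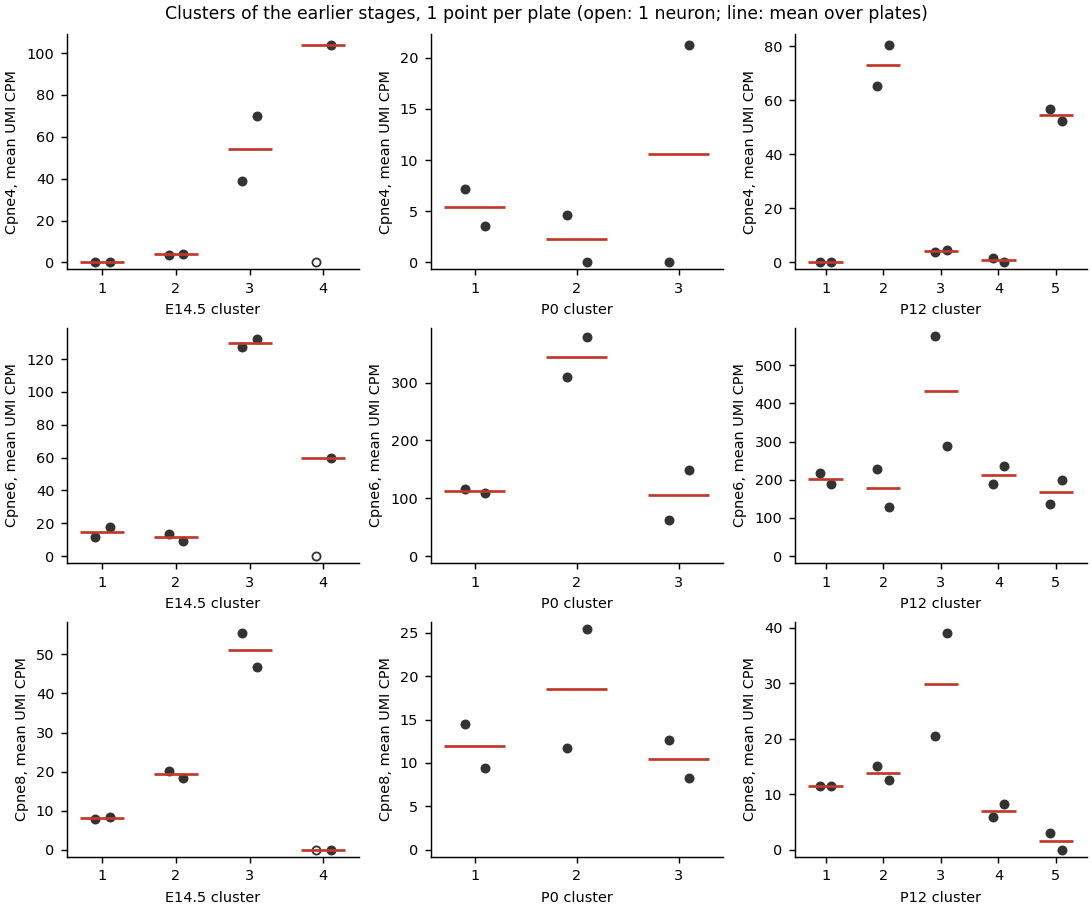
Mean UMI CPM of *Cpne4*, *Cpne6* and *Cpne8* in the clusters of E14.5, P0 and P12, 1 point per plate, with open points for 1 neuron and a line at the mean over plates with at least 2. *Cpne4* is high in E14.5 clusters 3 and 4 and in P12 clusters 2 and 5, and *Cpne6* is highest in E14.5 cluster 3, P0 cluster 2 and P12 cluster 3. The study proposes that E14.5 clusters 3 and 4 are not proprioceptors.

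Stages were compared on UMIs summed over all kept neurons of a plate (edgeR's quasi-likelihood F-test over 13 plates, Benjamini-Hochberg adjusted over 11939 genes). *Cpne1* and *Cpne7* had too few UMIs for the count filter, so 7 of 9 copines were tested. From E14.5 to P0, *Cpne6* rose from 42.0 and 34.0 CPM to 153 and 172 CPM, a log2 fold change of 1.96 (SE 0.36, adjusted p = 0.00143). *Cpne3* fell from 82.7 and 122 CPM to 36.6 and 27.0 CPM, a log2 fold change of -1.68 (SE 0.42, adjusted p = 0.00850). For either gene the plates of the stages did not overlap. These 2 of 7 copines stand beside 27.8% of all genes called in this comparison, 14.7% higher and 13.1% lower, so the share of copines is near the background. In sums over a plate, fewer neurons of a kind and less RNA per neuron cannot be told apart. Summed glial markers without *S100b* stood at 11.3 and 22.6 CPM at E14.5, with 3 of 8 markers at 0, and at 516 and 635 CPM at P0, with none at 0, and their part in these differences was not tested. *Cpne4* had a log2 fold change of -1.73 (SE 0.80, adjusted p = 0.120). It was called lower at P0 with only the plates of the 2 stages (-1.72, adjusted p = 0.00575), with no count filter (-1.65, adjusted p = 0.0185) and with neurons thinned to 7000 UMIs (adjusted p = 0.0374), where no P0 plate kept a *Cpne4* UMI and the fold has no meaning. *Cpne8* had a log2 fold change of -0.81 (SE 0.52, adjusted p = 0.261). With E14.5 clusters 1 and 2 alone, without the neurons of low *Etv1*, the *Cpne6* log2 fold change was 3.82 (adjusted p = 4.74e-05), that of *Cpne3* was -1.62 (adjusted p = 0.0121), and that of *Cpne4* changed sign to 0.75 (adjusted p = 0.678). The *Cpne3* call was lost without E14.5 replicate 2 (adjusted p = 0.0823) and without P0 replicate 2 (0.0920).

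From P0 to P12, *Cpne2* rose from 1.56 and 0.96 CPM to 10.8, 15.7, 21.0 and 14.7 CPM, a log2 fold change of 3.42 (SE 0.73, adjusted p = 0.00484). The P0 value rests on 3 UMIs in 55 neurons and the P12 value on 66 UMIs in 154. *Cpne5* fell from 14.7 and 14.1 CPM to 2.78, 1.10, 0.54 and 1.67 CPM, a log2 fold change of -2.46 (SE 0.63, adjusted p = 0.0140). Again no plates overlapped. Of all genes 18.1% were called here, 9.1% higher and 9.01% lower, and 2 of 7 copines. *Cpne5* was highest at P0 of all stages, with 5.34 and 5.07 CPM at E14.5 and at most 0.98 CPM on any adult plate. *Cpne6* (log2 fold change 0.68, SE 0.29, adjusted p = 0.126) and *Cpne4* (1.84, SE 0.72, adjusted p = 0.0893) did not pass. *Cpne4* passed with DESeq2 (1.92, adjusted p = 0.0456), with no count filter (1.85, adjusted p = 0.00212), without P12 replicate 4 (2.23, adjusted p = 0.0115) and without P12 replicates 3 and 4 together (2.65, adjusted p = 0.00120). Under that last setting, added after seeing the data, *Cpne6* passed too (0.93, adjusted p = 0.0476). The *Cpne2* call was lost without P0 replicate 1 (adjusted p = 0.0665) and without P0 replicate 2 (0.0543). *Cpne5* did not pass the count filter without P0 replicate 1, P12 replicate 3 or P12 replicate 4, and then has no test. In the main fit it met the filter through the P0 plates alone. There it stood at 13.9 and 7.61 CPM of a plate's pooled UMIs, against at most 5.50 CPM on any other plate. A gene admitted by its high stage is more likely to show a fall from that stage, so its call is a description. Glial transcripts other than *S100b*, which these neurons also express, summed to 516 and 635 CPM in the kept P0 neurons and to between 215 and 603 CPM in those of P12, and all 8 of these markers had UMIs at either stage.

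From P12 to the adult, edgeR's test called 0 of 7 copines, against 14.1% of all genes, 7.57% higher and 6.56% lower. At an unadjusted p under 0.05 there were 2, *Cpne3* (log2 fold change 0.68, SE 0.27, adjusted p = 0.102) and *Cpne2* (-0.83, SE 0.37, adjusted p = 0.148), and DESeq2 also called 0. The exact two-sided permutation test of plate means gave p between 0.0635 and 0.508 for the 8 copines with a UMI, the smallest after adjustment being 0.317, where 5 against 4 plates can reach 0.0159. The P12 plates of *Cpne4* spanned a wider range than the adult plates. It stood at 29.5 and 22.2 CPM on P12 replicates 1 and 2 and at 6.14 and 1.69 CPM on replicates 3 and 4, against 29.2, 20.5, 24.0, 24.7 and 13.7 CPM on the adult plates. Without P12 replicates 1 and 2, an alternative added after seeing the data, *Cpne4* was higher in the adult by 2.03 (log2, adjusted p = 0.00289), and without P12 replicates 3 and 4 *Cpne8* was lower in the adult, with a log2 fold change of -1.31 (adjusted p = 0.0306). With the adult main clusters only, *Cpne6* was lower in the adult (-0.76, adjusted p = 0.0170), and with no count filter *Cpne3* (0.65, adjusted p = 0.0396) and *Cpne4* (0.84, adjusted p = 0.0355) were higher. The pairs of P12 plates hold different clusters, so plate pair and cluster cannot be told apart here.

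**Figure D3:**
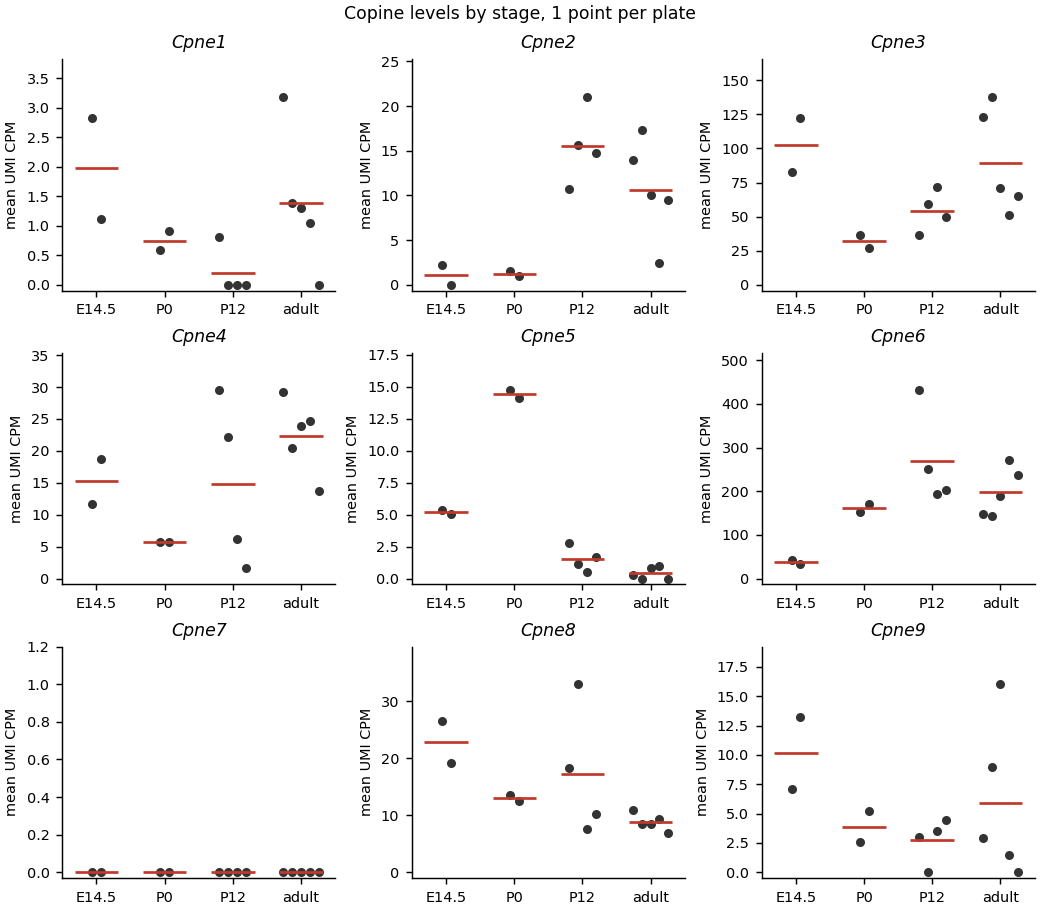
Mean UMI CPM of each copine over the kept neurons of a plate, by stage, 1 point per plate (2 at E14.5, 2 at P0, 4 at P12 and 5 in the adult) with the mean as a line; each panel has its own scale. *Cpne6* lies between 34.0 and 42.0 at E14.5 and at 144 or more on every later plate, *Cpne5* peaks at P0, *Cpne2* is at most 2.18 before P12, and *Cpne7* is at 0 throughout.

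**Figure D4:**
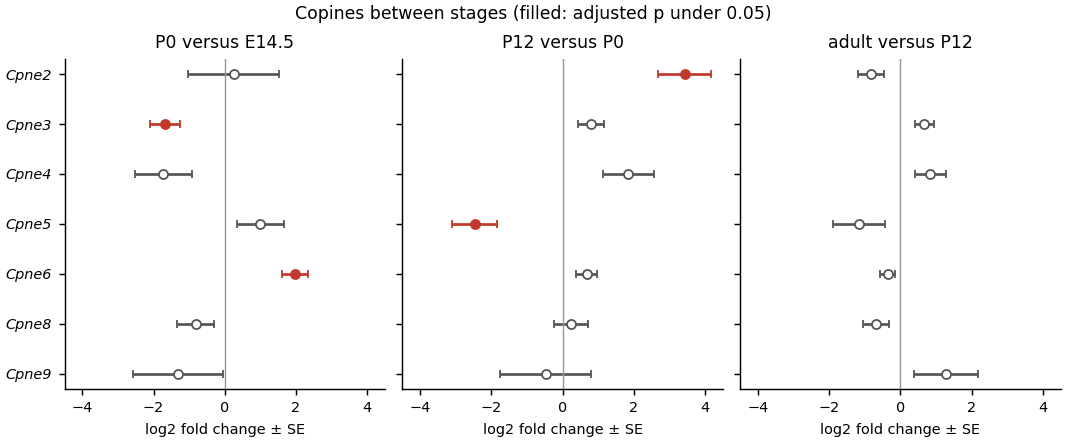
Log2 fold change between adjacent stages (point) with its standard error (bar) for the 7 copines tested, filled where the adjusted p is under 0.05. *Cpne3* and *Cpne6* are called from E14.5 to P0, *Cpne2* and *Cpne5* from P0 to P12, and none from P12 to the adult.

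Other C2 domain genes were listed for comparison (40 genes: synaptotagmins, extended synaptotagmins, ferlins, MCTPs, conventional protein kinases C, rabphilin and others), of which 20 were tested. From E14.5 to P0, 7 of 20 were called, 6 higher and 1 lower, beside 27.8% of all genes, with a median log2 fold change of 0.44 against 0.0072 over all genes and -0.81 over the 7 copines. The largest rises were *Mctp1* (3.70), *Syt2*, a fast calcium sensor of transmitter release (3.63), and *Syt3* (3.10), and the fall was *Syt9* (-2.44). From P0 to P12, 10 of 20 were called, 6 higher and 4 lower, beside 18.1% of all genes (median 0.17, all genes 0.023, copines 0.68). *Syt3* (1.87), *Syt7* (1.41) and *Syt2* (1.29) rose most, and *Syt5* (-4.41), *Syt17* (-3.03) and *Syt16* (-2.45) fell most. From P12 to the adult, 5 of 20 were called beside 14.1% of all genes, with *Syt4* (1.45) and *Syt3* (0.51) higher and *Syt16* (-3.67), *Syt17* (-2.42) and *Syt1* (-1.96) lower (median -0.031, all genes 0.038, copines -0.36). With any 1 plate of the stages left out, 3 or 4 of the list were called in the first comparison, beside 11.6% to 15.3% of all genes. Without P0 replicate 1, 5 were called in the second, beside 7.09%. In the last, 1 was called without P12 replicate 4 (7.85% of all genes), 2 without P12 replicate 3 (6.88%) and 3 without any 1 of adult replicates 1 to 4 (10.8% to 11.8%).

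By its methods the study removed cells with transcripts of satellite glia, and 242 adult wells with at least 2000 detected genes are not in its annotation. Summed glial markers were at 10757 to 16541 CPM there and 3885 to 4967 CPM in the kept neurons; without *S100b* the ranges were 7609 to 12657 and 309 to 852 CPM, and all 9 markers had UMIs in either class. With a term for the plate, 3 of 6 tested copines differed between left-out and kept wells, against 15.2% of all genes, 8.79% higher and 6.36% lower. *Cpne4* was lower in the left-out wells of every plate, at 13.1, 8.32, 14.2, 10.0 and 10.5 CPM against 29.2, 20.5, 24.0, 24.7 and 13.7 CPM (log2 fold change -0.75, SE 0.17, adjusted p = 0.00504). *Cpne2* was higher, with a log2 fold change of 1.09 (SE 0.25, adjusted p = 0.00560), at 13.3, 28.0, 13.5, 16.9 and 16.3 CPM against 14.0, 17.3, 10.0, 2.44 and 9.51 CPM, that is on 4 of 5 plates by mean CPM. *Cpne6* was lower (log2 fold change -0.38, SE 0.11, adjusted p = 0.0239), with 118, 165, 169, 158 and 200 CPM against 148, 144, 190, 272 and 237 CPM, that is on 4 of 5 plates. Its call was lost without replicate 1 (adjusted p = 0.0873), replicate 3 (0.130) or replicate 4 (0.217). DESeq2 called none of the 3 (adjusted p from 0.0904 to 0.117), and without the plate term only *Cpne4* was called. Markers of other sensory neurons (6 genes, among them *Calca* and the nociceptor sodium channel gene *Scn10a*) summed to 21.3, 0.70, 1.41, 2.62 and 245 CPM in the left-out wells of replicates 1 to 5 against 2.40, 4.79, 2.46, 3.10 and 17.8 CPM in the kept neurons. They were thus higher in the left-out wells on replicates 1 and 5 and lower on the other plates. Of these 6 markers *Scn10a* had no UMI in the kept neurons, and all had UMIs in the left-out wells. Markers of vascular and blood cells (4 genes) summed to 6.17, 0, 56.6, 2.78 and 37.1 CPM against 3.84, 0.33, 1.92, 1.79 and 10.2 CPM, with *Cldn5* at 0 in the kept neurons. Without replicate 5 the same count of 3 copines was called, beside 15.3% of all genes. The part of any of these markers in the copine differences was not tested. Outside the test, *Cpne2* was also higher in the left-out wells at P0, with 5.73 and 9.29 CPM on replicates 1 and 2 against 1.56 and 0.96 CPM, and at P12, with 24.1 to 37.1 CPM against 10.8 to 21.0 CPM. *Cpne4* was lower there on every P12 plate but not at P0 (5.94 and 6.60 against 5.66 and 5.79 CPM). *Cpne6* was lower at P0 (89.5 and 103 against 153 and 172 CPM). At P12 it was lower on every plate but replicate 3 (273 against 194 CPM). At P0 the markers of other sensory neurons stood at 58.0 and 87.0 CPM in the left-out wells against 16.2 and 1.10 CPM, and at P12 at 60.8, 185, 0 and 1.43 CPM against 1.62, 10.5, 0.51 and 0 CPM on replicates 1 to 4, and their part was not tested.

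**Figure D5:**
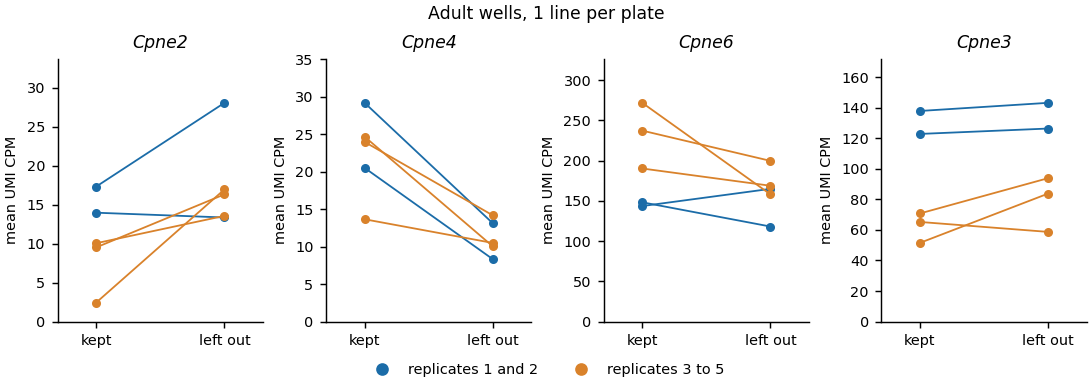
Mean UMI CPM of *Cpne2*, *Cpne4*, *Cpne6* and *Cpne3* in the kept neurons and the left-out wells of each adult plate, joined by a line, blue for replicates 1 and 2 and orange for replicates 3 to 5. *Cpne4* falls on all 5 plates and *Cpne2* rises on 4 of 5.

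Within adult clusters 1 and 5, which occur on all plates, replicates 1 and 2 were compared with replicates 3 to 5. In cluster 1, edgeR's test called 0 of 3 copines (1 at an unadjusted p under 0.05, DESeq2 0), against 10.8% of all genes, 6.21% higher and 4.58% lower. *Cpne4* had a log2 fold change of 0.51 (SE 0.24, adjusted p = 0.215) and *Cpne3* of 0.64 (SE 0.23, adjusted p = 0.0877). Without replicate 1, or with no count filter, *Cpne9* entered the test and was called, and 34 of its 36 UMIs on replicate 2 lay in 1 neuron. In cluster 5, 0 of 4 were called (1 at an unadjusted p under 0.05, DESeq2 0), against 8.4% of all genes, 5.09% higher and 3.31% lower. *Cpne6* there had a log2 fold change of -0.48 (SE 0.15, adjusted p = 0.0838), with replicates 1 and 2 at 343 and 304 CPM below replicates 3 to 5 at 476, 503 and 434 CPM, and it was called without replicate 5 (-0.52, adjusted p = 0.0494). The log2 difference of *Cpne6* between cluster 5 and the mean of clusters 1 to 4 was 1.97 from replicates 1 and 2 alone and 2.35 from replicates 3 to 5 alone.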

How the data were processed

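Values are UMI counts per gene and well of 13 plates, whole numbers without normalization, as deposited by the authors, who aligned reads with STAR to mm10 (GRCm38) with the NCBI annotation, demultiplexed wells and collapsed reads by UMI. Their annotation supplied kept neurons and hicat clusters. A second, filtered table of all plates held the same values and was not used.

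A well's own UMI total gave its CPM, which was averaged over neurons (at least 2 per cluster and plate), then plates. For tests, UMIs were summed by plate. edgeR 4.0.16 (R 4.3.3) then applied TMM scaling, its filterByExpr minimum and the quasi-likelihood F-test. A gene was called at a Benjamini-Hochberg adjusted p under 0.05. Stages shared 1 fit of 13 plates, and left-out wells had a plate term, since both sums come from 1 plate. DESeq2 1.42.0, limma 3.58.1 (used by edgeR), Python 3.11.15, numpy 2.4.6, pandas 2.3.3, scipy 1.17.1 and matplotlib 3.10.9 served alternatives, tables and plots. Alternatives were DESeq2, its size factors in edgeR, no count filter, fewer plates or clusters, 7000 UMIs per neuron, another pseudocount or minimum of neurons, pooled UMIs and each plate left out. Shares at 7000 UMIs are expected values over neurons at least that deep. Intervals are exact binomial at 95%, and intervals and limits from 0 (3 counts) cover counting error only.

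Members and lists were chosen with earlier results of these data known. Named were the copines, for copines in at least 20% of adult main-cluster neurons the 5 genes with the highest and 3 with the lowest mean r (among genes in at least 10% of neurons), and the 3 called C2 genes of largest rise and fall per comparison. *Cpne2* was under that 20%. A gene that this rule names is not reported here. Gene coordinates and overlaps are from GENCODE M21 (GRCm38). Scripts were tested on simulated counts. Clustering was not repeated.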

Additional observations from a re-analysis of the deposited data

Results flagged for a closer look

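Of 39 groups of 4 or 5 plates, 5 held a plate whose gap to the others was large for the range of its group, where the rule by design flags about 1 in 20 groups of normally spread values by chance. That rate was not measured for sparse counts, in which a single UMI on 1 plate can meet the rule, as in 3 of the 5 cases. *Cpne9* in adult cluster 1 stood at 27.4 CPM on replicate 2 against 0 to 3.47 CPM on the other plates, and 34 of the 36 UMIs there came from 1 neuron. *Cpne9* in adult cluster 3 stood at 34.3 CPM on replicate 3, with all 16 UMIs in 1 of 18 neurons, against 0 to 2.42 CPM elsewhere. *Cpne2* in adult cluster 1 stood at 3.44 CPM on replicate 3, from 1 UMI, against 0 to 0.91 CPM on the others. *Cpne1* was found on only 1 of the 4 P12 plates, replicate 1, at 0.81 CPM from 1 UMI. In adult cluster 3 it was found only on replicate 4, at 2.16 CPM from 1 UMI.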

How the results depend on the processing

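The numbers of copines called in the main fits were 2 (P0 versus E14.5), 2 (P12 versus P0), 0 (adult versus P12), 3 (left-out wells), and 0 and 0 (plate sets in clusters 1 and 5); those of the C2 list were 7, 10 and 5 in the stage comparisons. With each plate left out in turn, copines called ranged from 1 to 2, from 0 to 2 and from 0 to 0 between stages. In the left-out wells they ranged from 2 to 3, beside 10.4% to 15.3% of all genes. In either plate-set comparison they ranged from 0 to 1. The shares of all genes beside this were 3.43% to 13.2% in cluster 1 and 1.83% to 8.75% in cluster 5. The C2 list ranged from 3 to 4, from 5 to 10 and from 1 to 6, beside 11.6% to 15.3%, 6.8% to 18.5% and 6.88% to 16.5% of all genes. With neurons thinned to 7000 UMIs, which left only *Cpne3*, *Cpne4* and *Cpne6* past the count filter between stages, 3 copines were called from E14.5 to P0, 0 from P0 to P12 and 0 in the left-out wells, and 3, 5 and 3 of 13 C2 genes between stages, beside 23.7%, 10.6% and 11.7% of all genes and 6.1% in the left-out wells. With only the plates of the 2 stages, 3 of 4 copines were called from E14.5 to P0 and 1 of 5 from P0 to P12, and 11 of 17 and 3 of 15 C2 genes in the first and last stage comparison, beside 50.4%, 16.1% and 11.3% of all genes from first to last. No count filter also gave 3 of 8 copines from E14.5 to P0 (13.4% of all genes). From P0 to P12, DESeq2, no count filter and leaving out P12 replicates 3 and 4 together each gave 3 (16.6%, 8.53% and 19.6% of all genes). From P12 to the adult, 1 copine was called with adult main clusters only (13.9% of all genes), 1 without P12 replicates 1 and 2 together (25.9%), 1 without P12 replicates 3 and 4 together (4.92%), and 2 with no filter on low counts (8.87%). The C2 list gave 10 and 1 without those P12 pairs, and 1 without adult replicates 1 and 2 together (11.4%). No filter gave 1 call in the cluster 1 plate sets (4.75%). In the left-out wells DESeq2 called 0 (7.19%), and the fit without the plate term, that is without the replicate block that pairs the sums of a plate, called 1 (4.78%).

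Of 376 values of single copines under alternatives, 338 kept direction and side of the threshold, 14 lost a call, 14 gained one and 10 changed sign; the cause was not tested. The log2 fold changes that changed sign had no call. With E14.5 clusters 1 and 2 only, *Cpne2* was at -0.21 and *Cpne4* at 0.75 from E14.5 to P0. With single plates left out, *Cpne2* ran from -0.61 to 3.89 there, *Cpne8* from -0.22 to 0.58 and *Cpne9* from -1.22 to 0.54 from P0 to P12, *Cpne8* from -0.086 to 0.34 and *Cpne9* from -0.78 to 0.29 in the left-out wells, and *Cpne4* from -0.88 to 0.17 in the cluster 5 plate sets. Without P12 replicates 1 and 2, *Cpne8* was at -0.53 from P0 to P12 and 0.094 from P12 to the adult. The log2 difference of *Cpne4* moved to 1.40 on replicates 3 to 5 alone, and that of *Cpne2* to 1.85 with 10 CPM added.

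No paired analysis was possible between stages because replicate numbers were given in accession order and pair no plates. Permutation of plates could not reach 0.05 for P0 versus E14.5 (smallest p 0.333) or P12 versus P0 (0.133) and was not run there. The *Cpne2* difference has no value from replicates 3 to 5, which hold no cluster 4. A sparse copine in an E14.5 neuron of about 11174 UMIs has few UMIs to show.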
